A study of Mus musculus with 4 samples.

Results

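Ethanol feeding for 10 days, with or without a later ethanol binge, was studied in whole mouse liver through 10 genes of neutrophils and of leukocyte adhesion, picked by symbol from the 22155 genes counted. They are the neutrophil calcium-binding proteins S100a8 and S100a9, the receptors Csf3r and Cxcr2, the integrin chains Itgam and Itgb2, and the vessel-wall adhesion molecules Icam1, Vcam1, Selp and Sele. All 10 symbols were in the count table. Wild-type C57BL/6 mice aged 8 to 10 weeks had a Lieber-DeCarli liquid diet with 5% ethanol for 10 days and then a single gavage, into the stomach, of ethanol at 5 g per kg, with livers taken 9 h later (the gavage group). The other group, of the same strain, genotype and age, is called ethanol alone in the sample titles and is taken here to have had the diet without the gavage, since the treatment text is the same for all samples. Each group held 2 libraries. No label states that a library stands for its own animal, and p-values here cover the spread between samples, which may be technical. A gavage without ethanol, the sex of the mice and the time of day at killing could not be taken from the labels.

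Neutrophils leave the blood in steps. Selectins on activated endothelium (P-selectin, Selp, and E-selectin, Sele) tether passing cells, chemokines sensed through Cxcr2 activate their integrins, and the integrin CD11b/CD18 (Itgam with Itgb2) then binds ICAM-1 (Icam1) on the vessel wall. VCAM-1 (Vcam1) serves leukocytes that carry the integrin chain Itga4. The cytokine G-CSF acts through Csf3r to release and sustain neutrophils, and S100a8 and S100a9 form calprotectin, an abundant protein of their cytosol. In liver, most of this traffic passes through sinusoids, whose endothelium differs from that of larger vessels, and neutrophils in the liver are a known feature of binge drinking on top of chronic intake in mice.

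The genes lie at separate places in the genome apart from neighbours in the S100 and selectin clusters. S100a8 and S100a9 are 22596 bases apart on chromosome 3. Sele and Selp are 57586 bases apart on chromosome 1. The 250 bases before the RefSeq start (build GRCm38.p6) are shown, 5′ to 3′ on the gene's strand, for genes of these clusters and for Icam1, since these are the genes whose levels are set side by side below. Capitals mark matches, on either strand, to a κB-like motif GGNNNTTCC, the AP-1 motif TGANTCA, a C/EBP-like motif TTNNGNAA or a STAT-like motif TTCNNNGAA, and where matches overlap the capitals run together. The window of S100a8 reaches past the GENCODE start given below, as the annotations place the start differently.
S100a8 (chr3:90668821-90669070, plus strand): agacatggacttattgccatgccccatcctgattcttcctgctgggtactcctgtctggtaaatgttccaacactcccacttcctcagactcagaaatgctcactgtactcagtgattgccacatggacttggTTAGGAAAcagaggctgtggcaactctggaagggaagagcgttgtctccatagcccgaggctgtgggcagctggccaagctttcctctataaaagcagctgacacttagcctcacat
S100a9 (chr3:90695722-90695971, minus strand): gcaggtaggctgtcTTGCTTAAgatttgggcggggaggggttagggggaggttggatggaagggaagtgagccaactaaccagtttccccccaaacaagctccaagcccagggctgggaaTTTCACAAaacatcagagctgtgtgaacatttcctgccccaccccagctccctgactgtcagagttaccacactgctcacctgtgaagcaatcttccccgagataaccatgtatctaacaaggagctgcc
Sele (chr1:164047984-164048233, plus strand): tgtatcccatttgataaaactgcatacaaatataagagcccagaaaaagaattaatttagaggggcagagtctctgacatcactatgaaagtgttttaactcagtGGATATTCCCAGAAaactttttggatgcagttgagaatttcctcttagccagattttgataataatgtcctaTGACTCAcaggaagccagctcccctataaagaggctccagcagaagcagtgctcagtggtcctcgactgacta
Selp (chr1:164115014-164115263, plus strand): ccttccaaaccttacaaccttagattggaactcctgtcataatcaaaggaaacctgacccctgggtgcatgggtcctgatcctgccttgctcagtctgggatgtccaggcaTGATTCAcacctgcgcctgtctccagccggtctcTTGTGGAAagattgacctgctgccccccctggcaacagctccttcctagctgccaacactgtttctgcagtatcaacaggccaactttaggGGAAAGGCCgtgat
Icam1 (chr9:21015690-21015939, plus strand): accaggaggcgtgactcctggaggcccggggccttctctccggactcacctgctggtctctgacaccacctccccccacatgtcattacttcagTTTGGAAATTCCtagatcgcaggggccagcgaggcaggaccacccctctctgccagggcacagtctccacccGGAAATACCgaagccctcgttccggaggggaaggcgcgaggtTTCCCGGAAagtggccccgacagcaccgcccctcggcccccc
The κB-like letters occurred in 4 of the 8 members with a window (Sele, Selp, Csf3r and Icam1), against 15.7% of all 32851 windows of this length. AP-1 letters occurred in 2 of 8 (Sele and Selp), against 6.75%, and STAT-like letters in 2 of 8 (Sele and Icam1), against 7.02%. C/EBP-like letters occurred in 5 of 8 (Selp, S100a8, S100a9, Itgam and Icam1), against 36.8%. A match describes the letters alone and shows no bound factor.

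Total counts ran from 28791281 to 30347558 per library, and hepatocyte markers were abundant in all 4, with Alb between 83277 and 110898 CPM (counts scaled to a common library total, on library sizes adjusted by TMM, a composition factor). The libraries numbered 1 stood apart in both groups through RNA of other tissues. Gavage replicate 1 held 18 of 18 listed markers of stratified squamous epithelium, summing to 604 CPM. The sum was 1.59 CPM in gavage replicate 2, and 3.11 and 1.72 CPM in ethanol-alone replicates 1 and 2, where 12, 12 and 10 of the 18 markers were at 0. The keratins Krt4 and Krt13, at 7033 and 6531 counts in gavage replicate 1, were at 1 and 1 in gavage replicate 2, at 0 and 0 in ethanol-alone replicate 1 and at 2 and 0 in ethanol-alone replicate 2. Skeletal muscle markers summed to 729 and 1.10 CPM after gavage, against 321 and 9.81 CPM with ethanol alone. Adipose markers summed to 112 and 46.1 CPM after gavage, against 63.3 and 8.49 CPM with ethanol alone. Of the 7 adipose genes, 4 were at 0 in each replicate 2 library. Pancreatic acinar markers summed to 4.55 and 5.65 CPM after gavage, against 1485 and 8.46 CPM with ethanol alone. The squamous and pancreatic lists were drawn up after the counts had been seen. Results are therefore also given without gavage replicate 1, and for the replicate 2 libraries alone, where there is 1 library a group and no test.

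**Figure D1:**
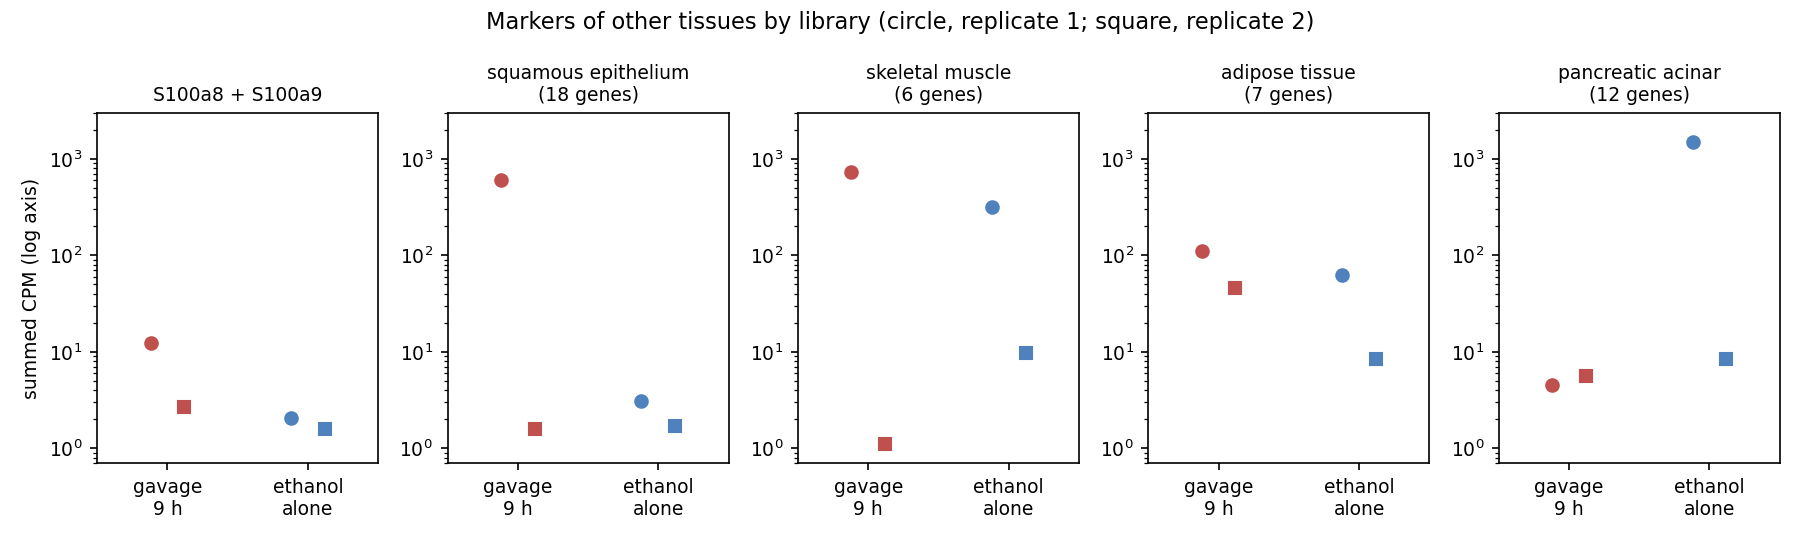
Summed CPM (log axis) of S100a8 and S100a9 and of marker lists of 4 other tissues in each library, gavage at the left and ethanol alone at the right; circles are replicate 1 and squares replicate 2. Gavage replicate 1 was highest for S100a8 with S100a9 (12.3 CPM), for squamous epithelium and for muscle, and ethanol-alone replicate 1 was highest for pancreas.

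Across the 10 genes, 8 passed the filter on low counts and were tested, while Cxcr2 and Sele had too few counts. After gavage, S100a8, S100a9, Csf3r, Itgam, Icam1 and Selp lay higher in both libraries than in either ethanol-alone library, Itgb2 lay slightly lower, and Vcam1 was at the same level within its spread. None of the 8 passed the quasi-likelihood test of edgeR at a Benjamini-Hochberg adjusted p under 0.05 over all 13309 genes tested, where 0% of genes passed. At an unadjusted p under 0.05, 4 of the 8 lay higher (S100a9, Itgam, Icam1 and Selp), where 8.91% of all tested genes did so, and 0 lay lower, where 9.85% did. This count of 4 became 0 without gavage replicate 1, 3 without gavage replicate 2 and 1 without either ethanol-alone library in turn. Groups did not overlap upward for 6 of the 8, where 27.5% of all genes showed this, and downward for 1 of 8, where 27.2% did. DESeq2 called Itgam alone among the 8, where it called 4.37% higher and 5.43% lower of the 12018 genes with a DESeq2 adjusted p. The likelihood-ratio test called 0 of the 8, where it called 2.14% of genes higher and 1.98% lower, and limma-voom called 0, where it called 0%. Each of the 8 had more than the filter's minimum of 10 counts in every library, the lowest being S100a8 at 14. Cxcr2 and Sele did not pass, so these counts do not speak for all 10. In whole liver, fewer or more cells of a type and less or more RNA per cell cannot be told apart.

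**Figure D2:**
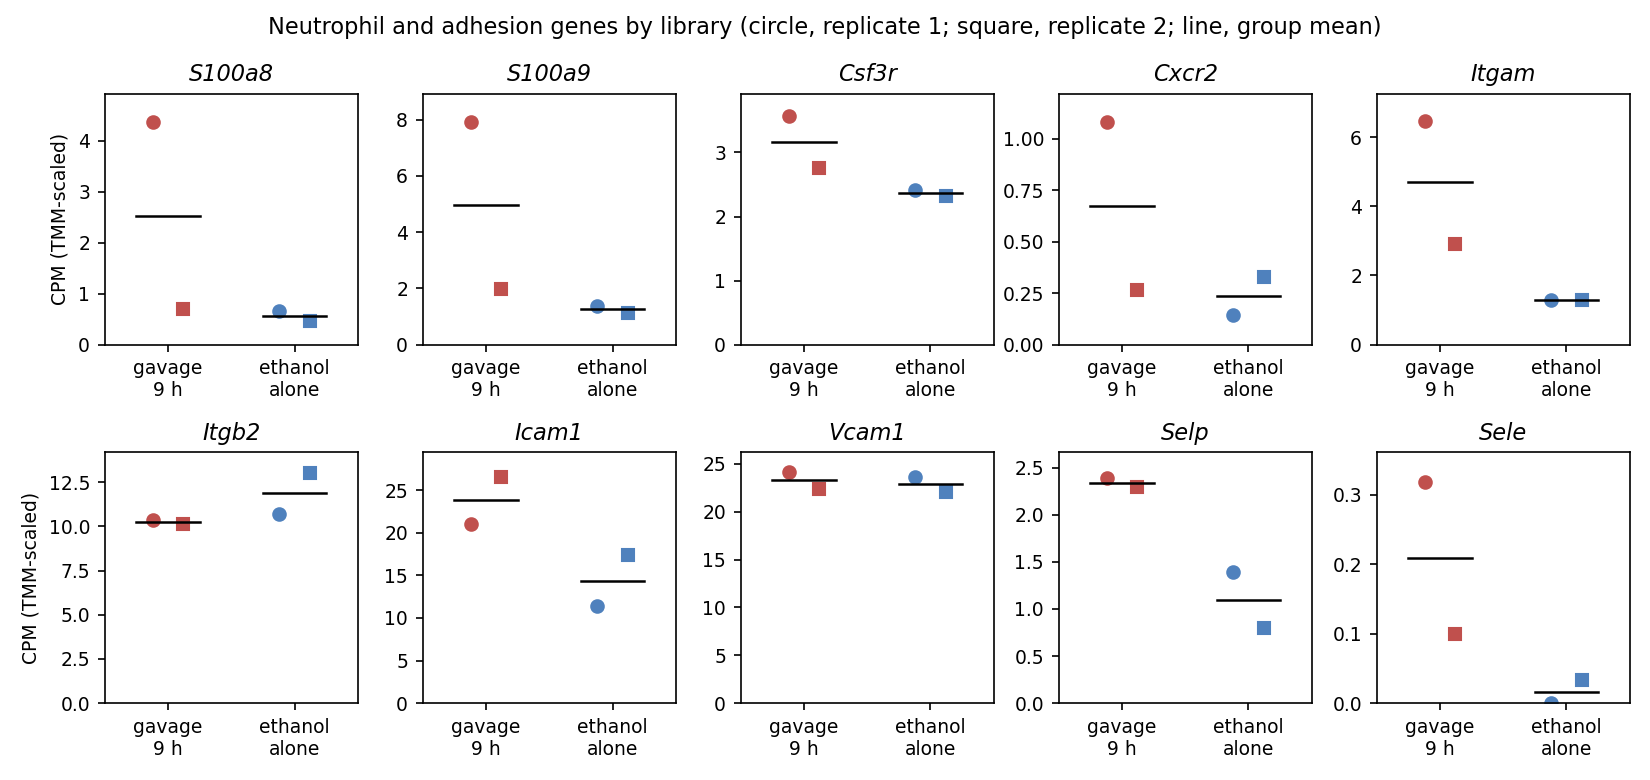
CPM of each of the 10 genes in each library, gavage at the left and ethanol alone at the right; circles are replicate 1, squares replicate 2 and lines group means. For S100a8, S100a9, Cxcr2, Itgam and Sele gavage replicate 1 lay well above gavage replicate 2, whereas Selp had 2.39 and 2.29 CPM in the gavage libraries.

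S100a8 and S100a9 lay highest in gavage replicate 1. S100a8 (ENSMUSG00000056054.9, chromosome 3, 90668978 to 90670035 in GRCm38) had 137 and 21 counts in the gavage libraries, against 18 and 14 in the ethanol-alone libraries. The gavage libraries thus stood at 4.36 and 0.70 CPM and the ethanol-alone libraries at 0.66 and 0.46 CPM. Gavage replicate 2 lay close to the ethanol-alone libraries. The log2 fold change was 2.17 (SE 0.91, edgeR adjusted p = 0.281), and 0.32 (edgeR adjusted p = 0.91) without gavage replicate 1. S100a9 (ENSMUSG00000056071.12, chromosome 3, 90692632 to 90695721) had 249 and 60 counts after gavage, against 38 and 34 with ethanol alone. Its means were 4.96 ± 4.20 CPM after gavage and 1.26 ± 0.19 CPM with ethanol alone (SD, n = 2 each). The log2 fold change was 1.98 (SE 0.69, edgeR adjusted p = 0.237), against 0.67 (edgeR adjusted p = 0.716) without gavage replicate 1. Between the replicate 2 libraries, S100a9 was 1.77 times as high after gavage (95% counting interval 1.15 to 2.79), and S100a8 was 1.51 times as high (0.731 to 3.21). Both proteins are also made by squamous epithelium, and the library where they were high was the one with squamous markers, whose part in the result was not tested. S100a9 had 1.82 and 2.86 times the counts of S100a8 in the gavage libraries, against 2.11 and 2.43 times with ethanol alone.

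Other S100 genes of the chromosome 3 cluster, a list drawn up after the counts had been seen, did not share one pattern. Of its 12 genes, 6 were tested, and edgeR's quasi-likelihood test called 0 of these. Unadjusted, 2 lay lower and 0 higher at p under 0.05. DESeq2 called 1 lower, S100a1. S100a14, an S100 protein of epithelia, had 209 and 2 counts after gavage, against 5 and 1 with ethanol alone, and S100a7a had 25 and 1, against 3 and 1. Both were high in gavage replicate 1 alone. S100a6 was high in both replicate 1 libraries, at 156 and 20 counts after gavage and 119 and 19 with ethanol alone. The tested genes nearest to S100a9 in profile over the 4 libraries were Esrp1, a splicing factor of epithelial cells, Frmd8 and Adh7, the alcohol dehydrogenase of the upper digestive tract. Their distances, on log2 CPM centred per gene, were 0.267, 0.316 and 0.384. Adh7 had 15.7 and 5.65 CPM after gavage, against 3.29 and 2.35 CPM with ethanol alone. With 4 libraries, many genes can come this near, and the likeness is a description.

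The receptors of neutrophils were low. Csf3r (ENSMUSG00000028859.14, chromosome 4, 126024550 to 126044440), the G-CSF receptor, had 112 and 83 counts after gavage, against 66 and 70 with ethanol alone. Its means were 3.16 ± 0.57 CPM after gavage and 2.36 ± 0.07 CPM with ethanol alone (SD, n = 2 each), and the log2 fold change was 0.42 (SE 0.30, edgeR adjusted p = 0.487), and 0.22 without gavage replicate 1. The groups did not overlap, but the difference did not pass the test. Cxcr2 (ENSMUSG00000026180.8, chromosome 1, 74153989 to 74161246), the receptor of CXCL1 and related chemokines, had 34 and 8 counts after gavage, against 4 and 10 with ethanol alone. The groups overlapped, since gavage replicate 2 lay below ethanol-alone replicate 2. Summed over libraries, Cxcr2 stood at 42 counts after gavage and 14 with ethanol alone, a depth-scaled ratio of 2.81 (95% counting interval 1.5 to 5.57). Between the replicate 2 libraries the ratio was 0.804 (0.276 to 2.26), so at this depth no difference in Cxcr2 was detectable outside gavage replicate 1. These intervals cover counting error only.

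Of the 8 listed ligands and growth factors of these receptors, Cxcl1 alone was expressed enough to be tested. Cxcl1, a neutrophil-attracting chemokine that hepatocytes can make, had 2218 and 923 counts after gavage, against 61 and 101 with ethanol alone. Both gavage libraries lay far above both ethanol-alone libraries. Its log2 fold change was 4.18 (SE 0.50, edgeR adjusted p = 0.108), which missed the threshold, while DESeq2 gave an adjusted p of 2.26e-16. Csf3, which encodes G-CSF, had 1 and 0 counts after gavage and 0 and 0 with ethanol alone. Cxcl2 had 15 and 1 counts after gavage, against 4 and 3 with ethanol alone.

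Among the integrin chains, Itgam lay higher after gavage and its partner Itgb2 did not. Itgam (ENSMUSG00000030786.18, chromosome 7, 128062640 to 128118491), which encodes CD11b, had 203 and 88 counts after gavage, against 35 and 39 with ethanol alone. In CPM these were 6.46 and 2.92 after gavage, against 1.28 and 1.29 with ethanol alone. Both gavage libraries were above both ethanol-alone libraries, which lay close together. The log2 fold change was 1.87 (SE 0.46), with an edgeR adjusted p of 0.17 and a DESeq2 adjusted p of 0.0178. It was 1.18 (edgeR adjusted p = 0.592) without gavage replicate 1, and the replicate 2 libraries gave a ratio of 2.27 (95% counting interval 1.54 to 3.40). Itgam shares 55809 bases with the gene model Gm49368 on the same strand in GENCODE. Gm49368 is not among the genes counted, and whether Itgam reads were lost through it in counting is not known.

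Itgb2 (ENSMUSG00000000290.13, chromosome 10, 77530252 to 77565708), which encodes CD18, the beta chain shared by the leukocyte integrins, had 325 and 305 counts after gavage, against 293 and 394 with ethanol alone. Its means were 10.2 ± 0.15 CPM after gavage and 11.9 ± 1.62 CPM with ethanol alone (SD, n = 2 each). The log2 fold change of Itgb2 was -0.21 (SE 0.20, edgeR adjusted p = 0.593), and ran from -0.37 without ethanol-alone replicate 1 to -0.12 without ethanol-alone replicate 2. Per library, Itgam had 0.625 and 0.289 times the counts of Itgb2 after gavage, against 0.119 and 0.099 times with ethanol alone. Of 12 other integrin chains and activators, 11 were tested, with 5 higher, 6 lower, 0 at an unadjusted p under 0.05 or called by edgeR, DESeq2 or the likelihood-ratio test, and a median log2 fold change of -0.01, where all tested genes had a median of 0.02. Itgb1, the most abundant, stood at 216 ± 11.1 CPM after gavage and 218 ± 10.5 CPM with ethanol alone, and Tln1, the integrin activator talin, at 126 ± 5.99 CPM after gavage and 113 ± 28.3 CPM with ethanol alone.

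**Figure D3:**
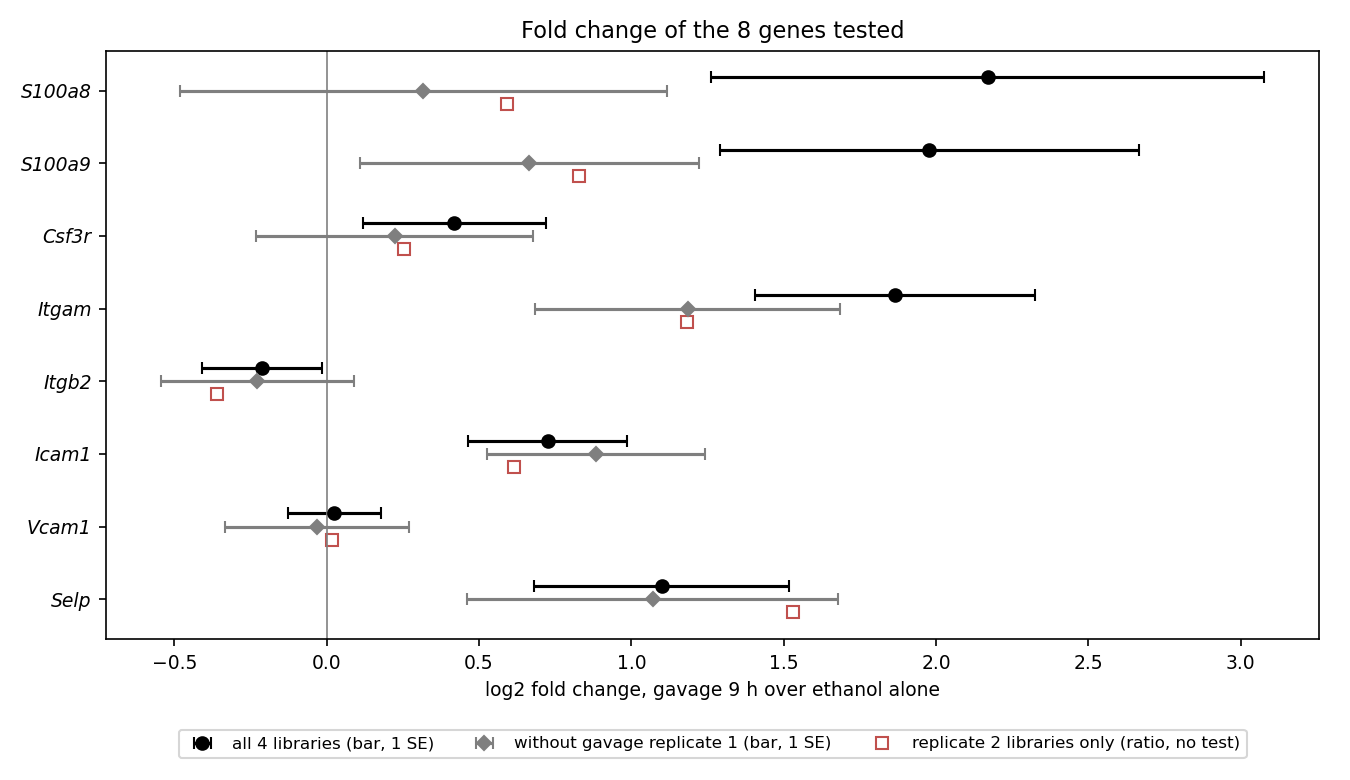
Log2 fold change, gavage over ethanol alone, of the 8 genes tested; black circles use all 4 libraries, grey diamonds leave out gavage replicate 1 (bars, 1 SE), and open squares are ratios of the replicate 2 libraries with no test. S100a8 stood at 2.17 with all libraries and 0.32 without gavage replicate 1, and Icam1 at 0.73 and 0.88; fits without an ethanol-alone library are not drawn.

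Among vessel-wall adhesion genes, Icam1 and Selp lay higher after gavage in both libraries and Vcam1 did not differ beyond its spread. Counts from whole liver do not show which cells carried this RNA. Icam1 (ENSMUSG00000037405.8, chromosome 9, 21015985 to 21028817) had 661 and 799 counts after gavage, against 312 and 525 with ethanol alone. The means were 23.8 ± 3.88 CPM after gavage and 14.4 ± 4.19 CPM with ethanol alone (SD, n = 2 each), without overlap. The log2 fold change was 0.73 (SE 0.26, edgeR adjusted p = 0.243). Here the higher gavage library was replicate 2, the one low in squamous and muscle markers, and the fold change was 0.88 (edgeR adjusted p = 0.582) without gavage replicate 1. It was 0.43 (edgeR adjusted p = 0.452) without ethanol-alone replicate 1, the library with pancreatic markers and the lowest Icam1. The replicate 2 libraries gave a ratio of 1.53 (95% counting interval 1.37 to 1.71). Vcam1 (ENSMUSG00000027962.14, chromosome 3, 116109949 to 116129688) had 760 and 673 counts after gavage, against 646 and 669 with ethanol alone. Its log2 fold change was 0.03 (SE 0.15, edgeR adjusted p = 0.944), with a sign that turned under other settings (-0.03 without gavage replicate 1). The genes nearest to Vcam1 in profile were Stab1, a scavenger receptor of sinusoidal endothelium (distance 0.0219), Plekho2 (0.0254) and Fxr2 (0.0266), all equally flat. Icam1 overlaps an antisense gene model over 511 bases, and Vcam1 overlaps one over 1238 bases, neither of them among the genes counted. How strand was treated in counting is not known, and reads of a gene and its antisense partner cannot be told apart.

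The selectins were scarce. Selp (ENSMUSG00000026580.16, chromosome 1, 164115264 to 164150026), which is stored in endothelial cells and platelets, had 75 and 69 counts after gavage, against 38 and 24 with ethanol alone. The means were 2.34 ± 0.07 CPM after gavage and 1.09 ± 0.42 CPM with ethanol alone (SD, n = 2 each), and the groups did not overlap. Its log2 fold change was 1.10 (SE 0.42, edgeR adjusted p = 0.255), and was 0.69 without ethanol-alone replicate 2, the library with the lowest Selp. Without ethanol-alone replicate 1 it was 1.53, and the replicate 2 libraries gave a ratio of 2.89 (95% counting interval 1.79 to 4.81). Platelet markers summed to 3.69 and 3.55 CPM after gavage, against 4.83 and 3.14 CPM with ethanol alone, and so overlapped between groups. Of these, Itga2b stood at 2.64 ± 0.12 CPM after gavage and 3.06 ± 0.54 CPM with ethanol alone, and Pf4 at 0.39 ± 0.034 CPM after gavage and 0.47 ± 0.38 CPM with ethanol alone. Selp overlaps gene models on the opposite strand over 2935 and 1436 bases, which are not among the genes counted.

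Sele (ENSMUSG00000026582.6, chromosome 1, 164048234 to 164057677), the selectin that endothelium makes on cytokine stimulation, had 10 and 3 counts after gavage, against 0 and 1 with ethanol alone. With 3 counts as the limit that a count of 0 allows, Sele could reach 0.11 CPM in ethanol-alone replicate 1. Summed, 13 counts after gavage stood against 1 with ethanol alone, a depth-scaled ratio of 12.2 with a 95% counting interval of 1.83 to 517. The replicate 2 libraries, at 3 counts after gavage and 1 with ethanol alone, could not separate the groups (0.242 to 158).

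Per kilobase of merged exons, the order of levels differed between groups. After gavage, S100a9 led at 9.5 CPM per kilobase, followed by Icam1 at 5.46, S100a8 at 3.65, Itgb2 at 3.36 and Vcam1 at 2.62. With ethanol alone, Itgb2 led at 3.89 CPM per kilobase, followed by Icam1 at 3.30, Vcam1 at 2.58, S100a9 at 2.41 and S100a8 at 0.81. The lead of S100a9 after gavage came from 15.2 CPM per kilobase in replicate 1, since replicate 2 had 3.82, below Icam1 at 6.09. In ethanol-alone libraries, Icam1 at 2.62 and 3.98 CPM per kilobase overlapped Itgb2 at 3.51 and 4.26, Vcam1 at 2.67 and 2.49 and S100a9 at 2.67 and 2.15. Csf3r, Itgam, Selp, Cxcr2 and Sele each averaged under 1 CPM per kilobase in both groups, with Sele lowest at 0.0718 after gavage and 0.00567 with ethanol alone.

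Companion genes were read by list. For every list below, the quasi-likelihood test of edgeR and limma-voom called 0 genes at an adjusted p under 0.05. Calls by DESeq2 and by the likelihood-ratio test, and the number of genes at an unadjusted edgeR p under 0.05, are given list by list. Of all 13309 tested genes, 6881 lay higher by fold change and 6428 lower, with 8.91% higher and 9.85% lower at that unadjusted p. Of the 12018 genes to which DESeq2 gave an adjusted p, it called 4.37% higher and 5.43% lower. A listed gene without that p counts as not called by DESeq2. The likelihood-ratio test called 2.14% of all tested genes higher and 1.98% lower.

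Other neutrophil genes were mostly scarce in whole liver. Of 27 listed markers and granule genes, 11 had 3 counts or fewer in every library and 7 had enough counts to be tested, 5 of them higher and 2 lower. The median log2 fold change was 0.57, and 0.55 without gavage replicate 1, 0.87 without gavage replicate 2 and 0.31 without ethanol-alone replicate 1. At an unadjusted p, 3 lay higher (Prtn3, Retnlg and Hdc) and 0 lower, while DESeq2 and the likelihood-ratio test each called 1, Prtn3. Prtn3, at 13 and 4 counts with ethanol alone, and Retnlg, at 6 and 5, passed the filter on low counts only with their gavage libraries. The filter thus favoured a higher level for both, which the median and counts of this list include. Log2 fold changes of the other tested genes were -0.26 for Wfdc21, -0.12 for Fpr1, 0.07 for Fpr2, 0.57 for Mmp9 and 0.80 for Hdc. Wfdc21, the most abundant of the list, stood at 249 ± 19.4 CPM after gavage and 299 ± 131 CPM with ethanol alone. Its level lay far above that of every other gene of the list, and which cells carried Wfdc21 was not tested. Hdc, histidine decarboxylase, stood at 8.15 ± 0.68 CPM after gavage and 4.69 ± 0.37 CPM with ethanol alone (edgeR adjusted p = 0.187).

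The granule genes did not share one pattern, as genes picked with their values known show. Ngp, Camp, Mpo, Elane and Ctsg, which encode granule proteins, and the surface marker Ly6g each had 3 counts or fewer in every library. Ltf, lactoferrin, had 8 and 1 counts after gavage, against 6 and 0 with ethanol alone, the higher value in replicate 1 of each group. Prtn3, the granule protease proteinase 3, had 124 and 56 counts after gavage, against 13 and 4 with ethanol alone (log2 fold change 3.25, SE 0.75, edgeR adjusted p = 0.156). DESeq2 gave Prtn3 an adjusted p of 0.0029. Retnlg had 25 and 16 counts after gavage, against 6 and 5 with ethanol alone, and Mmp8, neutrophil collagenase, had 22 and 9, against 1 and 2. Both lay higher in each gavage library. Il1r2, a decoy receptor of interleukin 1, had 70 and 5 counts after gavage, against 6 and 0 with ethanol alone, and so was high in gavage replicate 1 alone.

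Genes that neutrophils share with other leukocytes mostly had fold changes below 0. The 6 subunits of the phagocyte NADPH oxidase, the enzyme of the oxidative burst, all lay lower by fold change, with a median of -0.43, 2 at an unadjusted p and 0 called by DESeq2 or the likelihood-ratio test. Cybb stood at 27.7 ± 1.49 CPM after gavage and 32.3 ± 3.53 CPM with ethanol alone, and Cyba at 6.11 ± 1.27 CPM after gavage and 10.3 ± 2.88 CPM with ethanol alone. Of 9 genes of leukocytes in general, 9 lay lower, with a median of -0.49 and 3 at an unadjusted p. That median ran from -0.70 without ethanol-alone replicate 2 to -0.35 without gavage replicate 2. DESeq2 called 2 of the 9 lower, Lcp1 (adjusted p = 0.0182) and Tyrobp (adjusted p = 0.034), and the likelihood-ratio test 0. Lcp1, an actin-bundling protein, stood at 62.3 ± 4.64 CPM after gavage and 96.8 ± 0.64 CPM with ethanol alone, and Laptm5 at 20.0 ± 2.99 CPM after gavage and 28.1 ± 1.16 CPM with ethanol alone.

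Markers of Kupffer cells, the resident macrophages of liver, lay lower in 11 of 12, with a median of -0.71 and 9 at an unadjusted p. DESeq2 called 6 of them lower (Cd5l, Clec4f, C1qa, C1qb, C1qc and Folr2), and the likelihood-ratio test 1 (Folr2). Cd5l stood at 109.7 ± 10.6 CPM after gavage and 177 ± 6.19 CPM with ethanol alone (DESeq2 adjusted p = 0.0102, edgeR adjusted p = 0.199). Clec4f, a Kupffer cell lectin, stood at 98.7 ± 15.7 CPM after gavage and 165 ± 7.51 CPM with ethanol alone (DESeq2 adjusted p = 0.0144, edgeR adjusted p = 0.199). Hepatocyte markers also lay lower, in 5 of 6, with a median of -0.82 that ran from -1.20 without ethanol-alone replicate 2 to -0.53 without ethanol-alone replicate 1. Of the hepatocyte markers, 3 lay lower at an unadjusted p, and DESeq2 called Ttr, Tat and Cyp2e1 lower, with log2 fold changes of -0.90, -1.25 and -1.34. The likelihood-ratio test called Cyp2e1. Apoa1 stood at 5256 ± 811 CPM after gavage and 8772 ± 5418 CPM with ethanol alone. The part of this shift in the lower levels of leukocyte and Kupffer cell genes was not tested.

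Markers of T and NK cells lay lower in 9 of 11 tested, with a median of -0.57 and 0 at an unadjusted p. Their median was -0.89 without gavage replicate 1 and -0.20 without gavage replicate 2. It was -0.29 without ethanol-alone replicate 1 and -0.997 without ethanol-alone replicate 2. Il2rb stood at 2.21 ± 0.30 CPM after gavage and 2.83 ± 0.065 CPM with ethanol alone, and Lck at 1.04 ± 0.11 CPM after gavage and 1.80 ± 0.67 CPM with ethanol alone. Markers of B cells lay lower in 6 of 6, with a median of -0.46 and 0 at an unadjusted p. The B cell median was -1.65 without gavage replicate 1, 0.13 without gavage replicate 2, 0.55 without ethanol-alone replicate 1 and -1.07 without ethanol-alone replicate 2. Jchain stood at 3.83 ± 3.86 CPM after gavage and 5.39 ± 3.66 CPM with ethanol alone, and Cd79b at 0.92 ± 0.41 CPM after gavage and 1.25 ± 1.02 CPM with ethanol alone. Markers of monocytes, which also carry Itgam, had a median of 0.04 with 4 of 7 tested higher and 0 at an unadjusted p, and the median ran from -0.41 without gavage replicate 1 to 0.25 without ethanol-alone replicate 1. Lyz2 stood at 53.8 ± 2.38 CPM after gavage and 69.5 ± 7.84 CPM with ethanol alone, and Msr1, a scavenger receptor, at 22.6 ± 6.79 CPM after gavage and 22.8 ± 3.70 CPM with ethanol alone. DESeq2 and the likelihood-ratio test called 0 markers of T and NK cells, B cells and monocytes.

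**Figure D4:**
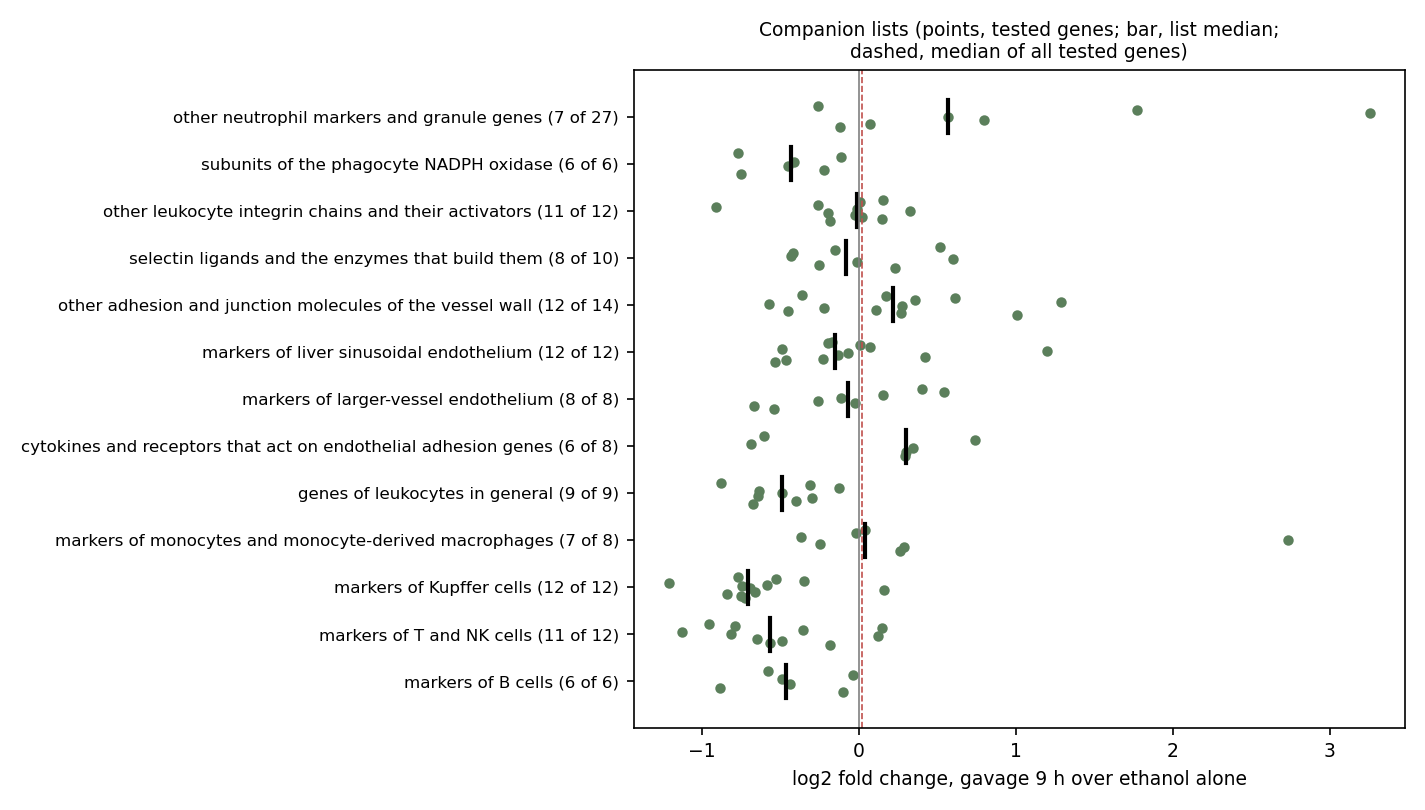
Log2 fold change, gavage over ethanol alone, of the tested genes in 13 lists named at the left with how many of the listed genes were tested; points are genes, black bars list medians and the dashed line the median of all tested genes (0.02). Medians ran from -0.71 for Kupffer cell markers to 0.57 for other neutrophil genes, of which Prtn3 and Retnlg passed the filter only with their gavage libraries.

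Other molecules of the vessel wall gave no common shift. Of 14 listed adhesion and junction genes, 12 were tested, 8 higher and 4 lower. Unadjusted, 2 passed upward and 1 downward. Their median log2 fold change was 0.22, and ran from -0.05 without gavage replicate 1 to 0.15 without gavage replicate 2 when each library was left out. F11r, a junctional adhesion molecule and the most abundant, stood at 92.5 ± 15.5 CPM after gavage and 76.4 ± 8.29 CPM with ethanol alone, and Cdh5, the cadherin of endothelial junctions, at 49.8 ± 5.30 CPM after gavage and 46.2 ± 16.6 CPM with ethanol alone. DESeq2 and the likelihood-ratio test called Jam2, a further junctional adhesion molecule, alone. It had 1592 and 1883 counts after gavage, against 601 and 736 with ethanol alone (log2 fold change 1.29, SE 0.19, edgeR adjusted p = 0.122, DESeq2 adjusted p = 6.95e-06).

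Sinusoidal endothelial markers had a median of -0.15 with 4 of 12 higher and 1 of these at an unadjusted p, and the median ran from -0.33 without gavage replicate 2 to -0.02 without gavage replicate 1. DESeq2 (adjusted p = 0.00222) and the likelihood-ratio test (adjusted p = 0.00985) called Lyve1, a hyaluronan receptor, alone in this list. Lyve1 had 1281 and 1125 counts after gavage, against 367 and 622 with ethanol alone, without overlap (edgeR adjusted p = 0.142). Ptprb stood at 154 ± 50.4 CPM after gavage and 147 ± 38.7 CPM with ethanol alone, and Stab2, a scavenger receptor, at 82.1 ± 10.6 CPM after gavage and 93.8 ± 4.64 CPM with ethanol alone. Markers of larger vessels had a median of -0.07 with 3 of 8 higher, which was -0.14 without ethanol-alone replicate 2. Clu, clusterin, stood at 917 ± 161 CPM after gavage and 1332 ± 146 CPM with ethanol alone. Thbd, thrombomodulin, stood at 18.4 ± 4.05 CPM after gavage and 12.7 ± 2.66 CPM with ethanol alone. Clu lay far above Thbd, and which cells carried Clu in whole liver was not tested. Stellate cell markers, cells that can also carry Vcam1, had a median of 0.08 with 6 of 8 higher, and of -0.07 without gavage replicate 1. Dcn, decorin, stood at 245 ± 16.2 CPM after gavage and 242 ± 36.8 CPM with ethanol alone, and Ecm1 at 159 ± 22.1 CPM after gavage and 186 ± 14.3 CPM with ethanol alone. In the lists of larger vessels and stellate cells, 0 genes passed an unadjusted p, DESeq2 or the likelihood-ratio test.

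Of the genes that make and carry selectin ligands, 8 of 10 were tested, 3 higher and 5 lower, with a median of -0.08, or -0.19 without gavage replicate 1 and 0.11 without gavage replicate 2. At an unadjusted p and by DESeq2, 1 of them lay higher, Glg1, and the likelihood-ratio test called 0. Glg1, a ligand of E-selectin, stood at 95.4 ± 3.89 CPM after gavage and 63.0 ± 5.53 CPM with ethanol alone (edgeR adjusted p = 0.206, DESeq2 adjusted p = 0.0388). St3gal4, a sialyltransferase and the most abundant, stood at 109 ± 9.80 CPM after gavage and 121 ± 16.8 CPM with ethanol alone. Cytokines and receptors that act on endothelial adhesion genes had 4 of 6 tested higher, with a median of 0.30, or 0.09 without gavage replicate 1 and 0.08 without ethanol-alone replicate 1. At an unadjusted p, 1 of them lay higher and 1 lower. DESeq2 called Tnfrsf1a alone among them (adjusted p = 0.00797), and the likelihood-ratio test 0. Tnfrsf1a, the main receptor of tumour necrosis factor, stood at 128 ± 10.9 CPM after gavage and 76.7 ± 6.00 CPM with ethanol alone, a log2 fold change of 0.74 (SE 0.20, edgeR adjusted p = 0.184). Il1r1, the interleukin 1 receptor, stood at 75.9 ± 26.6 CPM after gavage and 59.8 ± 12.1 CPM with ethanol alone. Tnf itself had 4 and 10 counts after gavage, against 5 and 13 with ethanol alone, so the groups overlapped.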

How the data were processed

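Whole-liver RNA was sequenced, 2 libraries a group, grouped by sample title. The labels name TruSeq and KAPA kits without tying either to a library. The authors deposited whole-number counts per gene symbol, with no normalization. Build GRCm38, HTSeq, edgeR, STAR 2.6.0a and bcl2fastq 2.20.0.422 appear in the submitters' processing notes, without their roles. For annotation and strand setting: not given in the sources used here.

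Analysis used edgeR 4.0.16 under R 4.3.3: filterByExpr by group (minimum count 10, total 15; 13309 genes kept), TMM, and a quasi-likelihood F-test (2-sided) of gavage over ethanol alone without covariate, Benjamini-Hochberg threshold 0.05. The SE is the absolute log2 fold change over the square root of F. CPM use TMM-scaled totals. Poisson and conditional binomial counting intervals are exact, at 95%. As a check of the code, fits were run on simulated counts with the same replicate spread set for every gene. That check does not show how well the tests perform on these libraries. Replicates of a group differed beyond sampling noise (chi-square per degree of freedom 157 after gavage and 147 with ethanol alone).

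Named genes are the 10 members, the 3 nearest profiles and the 2 tested genes of highest mean CPM per list (red cell, muscle and adipose genes not named), with list genes named for their role or after their values were seen also given. Profile likeness is Euclidean distance on log2(CPM + 0.1). The members and lists were chosen with earlier results of these data known. Coordinates and exon lengths come from GENCODE vM21 (GRCm38), matched by symbol for 243 of 244 listed genes. Another gene is not reported here. Alternatives used DESeq2 1.42.0, limma-voom (limma 3.58.1), the likelihood-ratio test, other scalings and filters, a replicate block and each library left out.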

Additional observations from a re-analysis of the deposited data

How the results depend on the processing

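The count of 0 genes called over all genes by edgeR's quasi-likelihood test (unadjusted p under 0.05: 1186 higher, 1311 lower) became 410 with the replicate block, 1177 with DESeq2 and 549 with the likelihood-ratio test, and ran from 0 to 31 with each library left out. The replicate block called 0 of the 8 members tested. The labels do not say that a number marks a shared animal, batch or day, and replicate 1 minus replicate 2 deviations correlated between groups at 0.573 over genes. DESeq2 called 1 of the 8 members tested, Itgam (log2 fold change 1.87). The count of 4 members higher at an unadjusted p under 0.05 ran from 0 to 3 with each library left out. With the replicate 2 libraries alone, an alternative chosen after seeing the data, log2 ratios were 0.59 for S100a8, 0.83 for S100a9, 1.18 for Itgam, 1.53 for Selp and -0.31 for Cxcr2. The log2 ratio of Itgb2 was -0.36 there. Without 1 library, Cxcr2 ran from 0.13 to 2.22. Vcam1 changed sign with upper-quartile factors (-0.010), and ran from -0.077 to 0.075 with each library left out. The cause of these changes was not tested. In fits without 1 library, the lone sample of its group is assumed to vary like the other group. Of the remaining comparisons of list medians, 233 stayed within the replicate spread and 27 moved beyond it. That spread was wide for some lists, at 5.27 for muscle and 4.21 for adipose markers. A median could thus change sign and count as within it, as for muscle (0.83, and -1.39 with limma-voom). Many of these comparisons refit the same 4 libraries, so the tally does not measure how stable the medians are. Depth limits Cxcr2 and Sele, at 34 counts or fewer per library.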
